A study of Mus musculus with 6 samples.

Results

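The osteoblast and mineralization genes of the E14.0 mouse palate were 33 genes, chosen by name for their known roles in bone-forming cells and in the deposition of mineral, out of 56691 gene identifiers counted. Of the 33, 28 had at least 10 counts in at least 3 libraries and were tested, and 5 (Dspp, Bglap, Bglap2, Enam and Amelx) lay below that limit. Bulk RNA-seq had been performed on palatal shelves dissected from C57BL/6J embryos, the anterior 1/3 of the shelves giving 3 libraries and the posterior 1/3 another 3. The groups thus differed by region and by no treatment or genotype that the labels name, and the labels give neither the sex of the embryos nor how many were pooled for a library. The study describes the samples as independent, and where libraries share embryos or a dissection the p-values measure only the spread between them.

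In bone that forms directly from mesenchyme, as in the hard palate, cells committed to the osteoblast lineage lay down a matrix rich in collagen and then mineralize it. Mineral grows when phosphate is released and pyrophosphate, which blocks crystal growth, is removed, and acidic phosphoproteins of the matrix promote or restrain that growth. Osteoblasts also control the formation of osteoclasts, the cells that resorb bone, through a secreted ligand and its decoy receptor.

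Counts per library were between 11378736 and 15172733, and levels are given as CPM, counts scaled to a common library size of 1000000 after TMM normalization, which corrects library sizes for differences in composition. A count of 0 allows up to 3 counts, or between 0.198 and 0.264 CPM of the raw library total, for counting error only. Posterior replicates 2 and 3 stood apart from the other libraries. Their share of multimapped reads, which align to more than 1 place, was 6.12% and 5.94%, against 8.45% to 8.77% elsewhere, and their mitochondrial share was 0.973% and 1.14%, against 2.70% to 2.97%. The test between regions was edgeR's quasi-likelihood test, with fold changes given as posterior over anterior on the log2 scale and p-values adjusted by the Benjamini-Hochberg method over all 15673 genes tested. A gene is said to be called where its adjusted p was below 0.05.

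Of the 28 genes tested, 8 were called, and all 8 were higher in the anterior palate, where 2.59% of all genes tested were called in that direction and 7.46% in either. They were the regulators Creb3l1 and Vdr, the matrix gene Kazald1, the acidic phosphoprotein gene Dmp1, the enamel matrix gene Ambn, the phosphate and pyrophosphate genes Enpp1 and Phospho1, and the membrane protein gene Ifitm5. None was called higher in the posterior palate by edgeR's quasi-likelihood test, where 4.87% of all genes tested were, although 4 had an unadjusted p below 0.05 in that direction. DESeq2 called 2 genes toward the posterior palate, Cthrc1 and Tnfrsf11b (8.56% of all genes tested), and limma-voom called 0 (4.28%). The fold change was negative for 21 and positive for 7 of the 28 genes, with a median of -1.21 against -0.0040 over all genes tested. The levels of the anterior and posterior libraries did not overlap for 18 of the 28 genes, against 28% of all genes tested. For 16 genes every anterior library was the higher (13.4% of all genes tested), and for Serpinf1 and Slc20a1 every posterior library was (14.7%). In a bulk library, fewer osteoblasts and less RNA of a gene per osteoblast cannot be told apart.

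**Figure D1:**
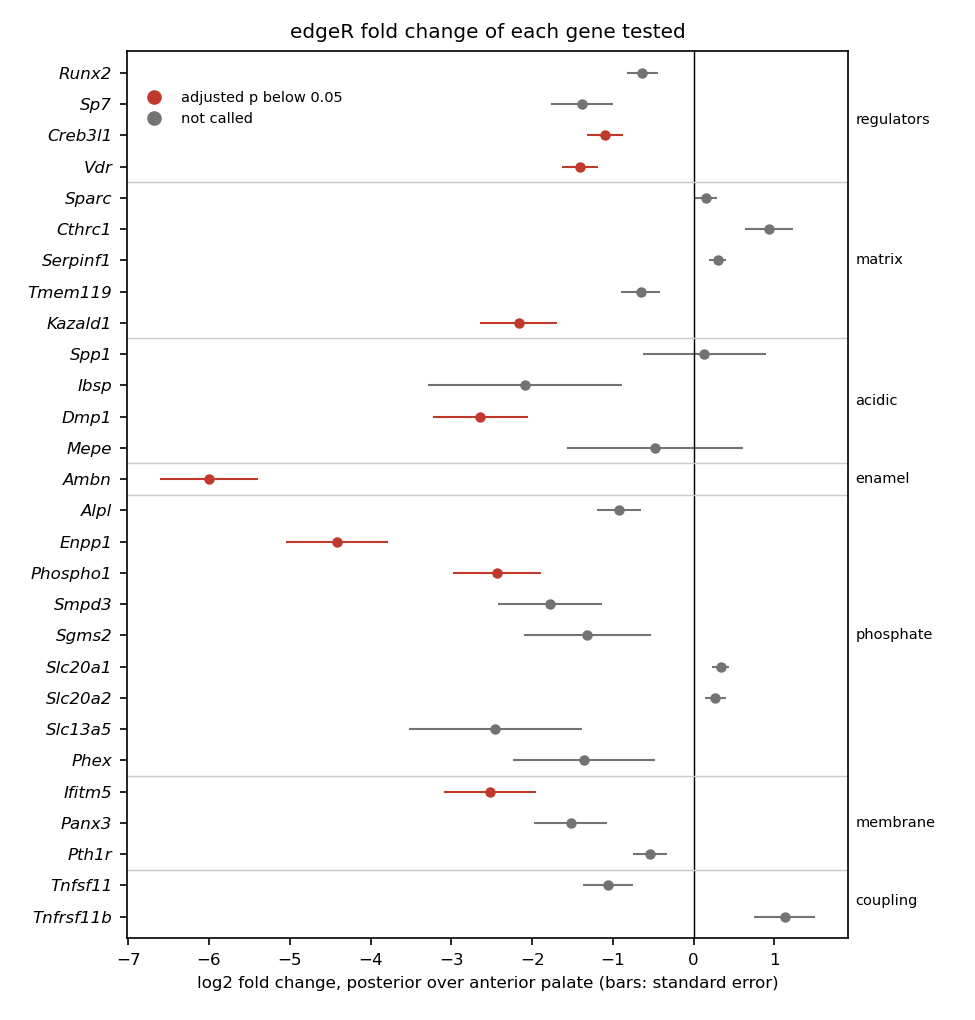
Each row is 1 of the 28 genes tested, in the order of their roles, and the axis gives the log2 fold change of the posterior over the anterior palate with its standard error from edgeR. The 8 called genes (red) all lie left of 0, Ambn and Enpp1 farthest, and the bars of Ibsp, Mepe and Slc13a5 are the widest.

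The count of called genes changed with single libraries. It was 2 without anterior replicate 1 (3.38% of all genes tested), 3 without anterior replicate 2 (3.23%) and 5 without anterior replicate 3 (4.09%). It was 20 without posterior replicate 1 (46.4%), where the posterior libraries left are the 2 that stand apart, 2 without posterior replicate 2 (3.25%) and 14 without posterior replicate 3 (4.15%). With 8 called in each, RLE normalization called 7.46% of all genes tested, library size only 7.45%, limma-voom 6.85%, unstranded counts 7.16% and a minimum absolute log2 fold change of 1 called 5.2%. DESeq2 called 13 (12.6%), 3 were called with the replicate number as a block (5.29%), 17 with no limit on low counts (7.14%) and 5 with the limit of 10 counts applied to all 6 libraries (6.01%). Of the 6 fits that left out 1 library each, Ambn and Enpp1 were called in all 6, Vdr in 4, Creb3l1 in 3, Kazald1, Phospho1 and Ifitm5 in 2 and Dmp1 in 1. Alpl, Ibsp, Panx3, Phex, Slc13a5, Smpd3 and Sp7 were called without posterior replicate 3 and not with all 6 libraries.

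The label was checked against genes that define the osteoblast. Runx2, Sp7, Alpl and Ibsp were counted in all 6 libraries, with the lowest count, 239 of Ibsp, in posterior replicate 1. The genes of osteocalcin, a vitamin K-dependent protein of mature osteoblasts, were near or at 0. Bglap had 3, 0 and 1 counts in anterior replicates 1, 2 and 3 and 0 in every posterior library, and Bglap2 had 2, 0 and 0 in the anterior libraries and 0 in every posterior library. Both are near-identical copies, and 66.1% and 73.3% of the 75-base stretches of the Bglap and Bglap2 transcripts occur in another gene of the family, so reads from them could be lost from counts of uniquely placed reads.

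Sequence upstream of the start site is shown for 4 genes, because Ambn and Enpp1 were called whichever library was left out and because Ibsp and Dmp1 are neighbours on chromosome 5 of which Dmp1 was called and Ibsp was not. The sequences are from RefSeq on GRCm38.p6, 5′ to 3′ on the strand of the gene, and stop where an annotated exon begins. Capitals mark the core motif of RUNX factors, ACCACA or its complement on the other strand, TGTGGT. They are Ambn (chr5:88455741-88455990, plus strand), Enpp1 (chr10:24712160-24712409, minus strand), Ibsp (chr5:104299037-104299170, plus strand) and Dmp1 (chr5:104202367-104202612, plus strand).
Ambn: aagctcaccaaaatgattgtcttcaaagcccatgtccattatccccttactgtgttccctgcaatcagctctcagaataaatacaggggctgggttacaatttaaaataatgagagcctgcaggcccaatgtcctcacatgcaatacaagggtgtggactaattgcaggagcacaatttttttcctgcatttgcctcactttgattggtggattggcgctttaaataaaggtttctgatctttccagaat
Enpp1: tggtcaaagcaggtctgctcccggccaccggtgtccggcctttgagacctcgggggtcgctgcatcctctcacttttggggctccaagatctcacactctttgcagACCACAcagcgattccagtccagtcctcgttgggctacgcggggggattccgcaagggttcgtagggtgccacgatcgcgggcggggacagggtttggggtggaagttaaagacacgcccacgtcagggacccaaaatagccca
Ibsp: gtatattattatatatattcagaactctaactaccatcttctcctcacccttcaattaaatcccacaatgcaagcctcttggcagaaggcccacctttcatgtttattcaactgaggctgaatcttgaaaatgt
Dmp1: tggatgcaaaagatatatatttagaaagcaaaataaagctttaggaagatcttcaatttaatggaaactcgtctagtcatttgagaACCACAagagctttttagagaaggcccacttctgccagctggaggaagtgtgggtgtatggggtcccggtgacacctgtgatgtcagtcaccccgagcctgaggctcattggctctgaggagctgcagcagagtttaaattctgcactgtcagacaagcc

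In these windows the core occurred once in Enpp1, starting 144 bases upstream of the start site, and once in Dmp1, 164 bases upstream. Dmp1 had 2 windows, and the window not shown held no core. Among the genes of the list with a promoter window in the RefSeq table, 10 of 23 held the core in at least 1 window, and 18.9% of all 27025 genes with a window did. The number of windows per gene was between 1 and 6 in the list, and a gene with more windows has more places for a match. Counted by window, 10 of 36 in the list held the core (27.8%), against 16.8% of all 32851 windows. A match of these letters is a description of the window only. The other 10 genes of the list had no window in the table.

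The lineage regulators come first in the order of osteoblast formation. All 4 were lower in every posterior than in every anterior library (13.4% of all genes tested), and 2 were called toward the anterior palate (2.59%). Runx2, the transcription factor that commits cells to the lineage, had 162, 161 and 134 CPM in anterior replicates 1, 2 and 3 and 70.8, 106 and 118 CPM in posterior replicates 1, 2 and 3. The groups did not overlap, and the fold change was -0.63 (standard error 0.19, adjusted p = 0.0925). Sp7 (osterix), a zinc finger factor acting downstream of Runx2, had 232, 265 and 123 CPM in the anterior and 48.7, 67.2 and 121 CPM in the posterior libraries. Anterior replicate 3 and posterior replicate 3 lay next to each other, and the fold change was -1.39 (standard error 0.38, adjusted p = 0.0767).

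Creb3l1, a membrane-bound factor of the endoplasmic reticulum that activates type I collagen in osteoblasts, had 198, 195 and 120 CPM in the anterior and 77.0, 64.9 and 97.9 CPM in the posterior libraries. It was called, with a fold change of -1.10 (standard error 0.23, adjusted p = 0.0273). Vdr, the vitamin D receptor, had the tightest posterior values among the 8 called genes, at 1.80, 1.81 and 1.99 CPM, against 5.92, 4.73 and 4.24 CPM in the anterior libraries. Its fold change was -1.41 (standard error 0.23, adjusted p = 0.0100), and each posterior library held 24 to 29 counts of it.

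**Figure D2:**
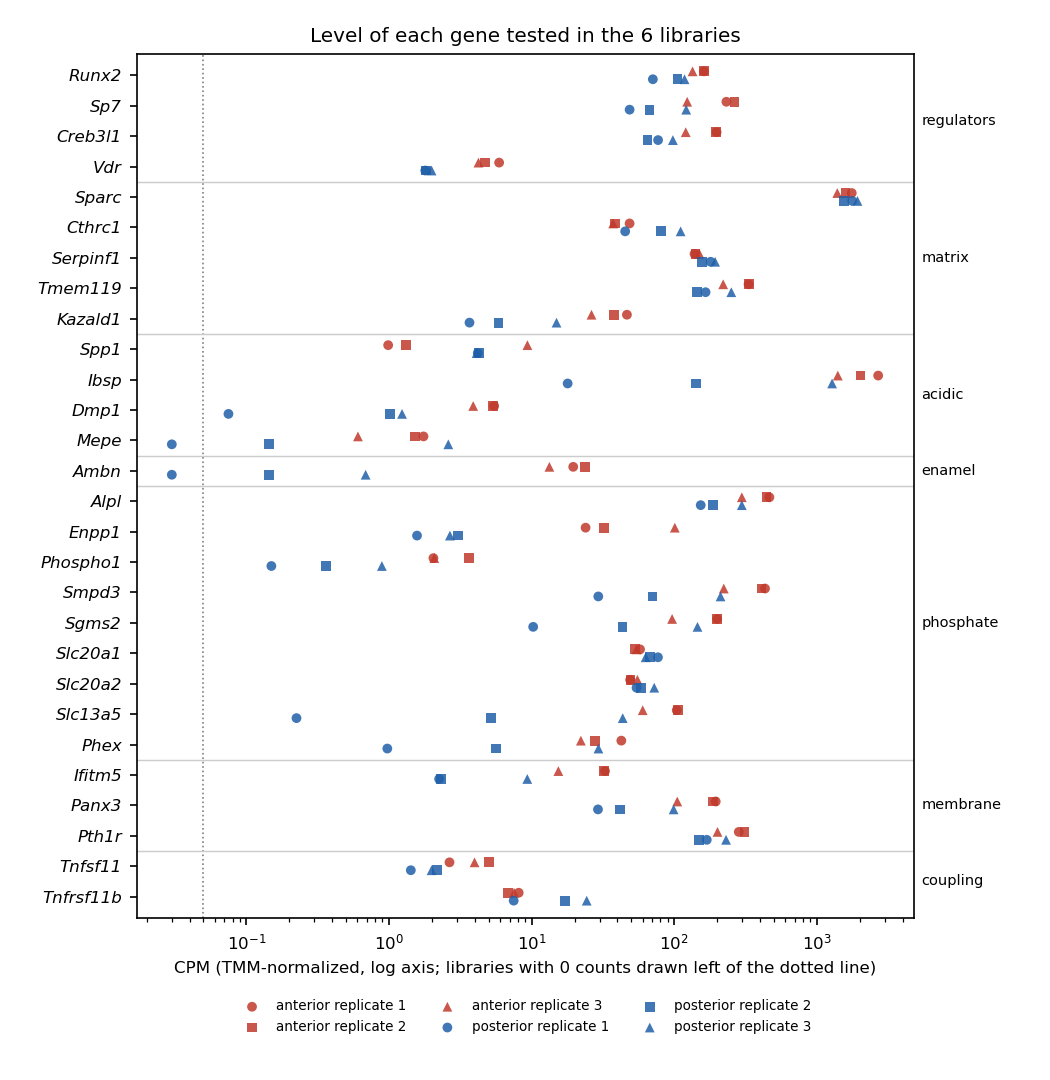
Each row is 1 of the 28 genes tested and each point 1 library, on a log axis of TMM-normalized CPM, with anterior libraries in red and posterior libraries in blue, and libraries with 0 counts drawn left of the dotted line. Ibsp spans 17.9 to 1279 CPM among the posterior libraries while Sparc, Serpinf1, Slc20a1 and Slc20a2 lie close together in all 6.

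The matrix and early osteoblast genes were divided. Sparc (osteonectin), an abundant protein that binds collagen and mineral, had 1757, 1587 and 1391 CPM in the anterior and 1772, 1556 and 1927 CPM in the posterior libraries. The groups overlapped, and the fold change was 0.15 (standard error 0.14, adjusted p = 0.515). Serpinf1, which encodes a secreted serpin whose loss causes a brittle bone disease with unmineralized matrix, had 139, 141 and 150 CPM in the anterior and 180, 156 and 193 CPM in the posterior libraries. Its fold change was 0.30 (standard error 0.11, adjusted p = 0.138).

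Cthrc1, a secreted protein that promotes bone formation, had 48.6, 38.5 and 37.3 CPM in the anterior and 45.3, 81.2 and 111 CPM in the posterior libraries. Posterior replicate 1 lay among the anterior libraries, and the fold change of 0.93 (standard error 0.30, adjusted p = 0.110) was not called by edgeR's quasi-likelihood test. It was 1.22, and called, without posterior replicate 1 and 0.13 in a fit with a term for the share of multimapped reads. Tmem119, a membrane protein that promotes osteoblast differentiation, had 332, 333 and 220 CPM in the anterior and 166, 145 and 251 CPM in the posterior libraries, with a fold change of -0.66 (standard error 0.24, adjusted p = 0.148). Kazald1, a secreted relative of the insulin-like growth factor binding proteins found in developing bone, was the called gene of this group. It had 46.6, 37.6 and 26.3 CPM in the anterior and 3.67, 5.85 and 14.9 CPM in the posterior libraries, without overlap, and its fold change was -2.17 (standard error 0.48, adjusted p = 0.0352), or -2.94 without posterior replicate 3.

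The 5 genes of acidic phosphoproteins that bind mineral lie side by side on chromosome 5 within 270 kb, at 104170712 to 104441050 on GRCm38, in the order Dspp, Dmp1, Ibsp, Mepe and Spp1. Ibsp (bone sialoprotein), a nucleator of mineral, had the highest level of the 33 genes for its length in the anterior palate, at 986 ± 312 CPM per kilobase of exon (SD, n = 3), against 417 ± 48.3 (SD, n = 3) for Sparc. In CPM, not scaled by length, it had 2692, 2022 and 1403 in the anterior and 17.9, 143 and 1279 in the posterior libraries.

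Posterior replicate 3 of Ibsp was thus 71.5-fold above posterior replicate 1, with a 95% interval of 62.9 to 81.6 for counting error only, and 8.97-fold above posterior replicate 2 (8.56 to 9.40). The groups did not overlap, but with this spread the fold change of -2.09 had a standard error of 1.20 (adjusted p = 0.309). Without posterior replicate 3 it was -4.66, and without posterior replicate 1 it was -1.51.

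Dmp1, a matrix protein of osteocytes and odontoblasts that controls phosphate handling, had 72, 74 and 45 counts in the anterior and 1, 14 and 18 counts in the posterior libraries. Every anterior library lay above every posterior one, and the fold change was -2.64 (standard error 0.59, adjusted p = 0.0380). Mepe, which restrains mineralization through an acidic peptide at its end, had 23, 21 and 7 counts in the anterior and 0, 2 and 38 counts in the posterior libraries. Its highest and its lowest level were both posterior, and its fold change of -0.48 (standard error 1.09, adjusted p = 0.796) turned to 0.09 without posterior replicate 1 and 0.03 without posterior replicate 2.

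Spp1 (osteopontin), an inhibitor of crystal growth to which osteoclasts attach, differed among the anterior and not among the posterior libraries. It had 0.986, 1.31 and 9.34 CPM in the anterior and 4.19, 4.26 and 4.11 CPM in the posterior libraries. Anterior replicate 3 was above, and anterior replicates 1 and 2 were below, all 3 posterior libraries, and the fold change was 0.13 (standard error 0.76, adjusted p = 0.923). It was -0.33 without anterior replicate 1, -0.29 without anterior replicate 2 and 1.85 without anterior replicate 3, where it was called. Dspp, the precursor of dentin proteins, had 3, 0 and 1 counts in the anterior and 0 in every posterior library.

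Among the enamel matrix genes, Ambn (ameloblastin) had 258, 327 and 154 counts in the anterior and 0, 2 and 10 counts in the posterior libraries, or 19.6, 23.8 and 13.3 CPM against 0, 0.145 and 0.686 CPM. The groups lay far apart, with a fold change of -6.00 (standard error 0.61, adjusted p = 0.0015). Its size rested on posterior replicate 3, the posterior library with more than 3 counts. Without that library the fold change was -7.83. That value rests on posterior counts of 0 and 2, within the 3 counts allowed for a count of 0, and its size is uncertain. Enam (enamelin) starts 19.4 kb downstream of the end of Ambn and had 0, 3 and 7 counts in the anterior and 1 count in every posterior library. Amelx (amelogenin), on the X chromosome, had 0 counts in all 6 libraries.

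Ambn is best known from ameloblasts, the enamel-forming cells of teeth, and 5 ameloblast markers were examined beside it. Of these, Amtn and Mmp20 had at most 1 count in any library, and Odam and Klk4 stayed at 12 counts or fewer. Odaph was higher in every posterior library without being called by edgeR's quasi-likelihood test (1.52, standard error 0.43, adjusted p = 0.0825), whereas DESeq2 called it. The summed level of these 5 markers was 1.74 to 4.02 CPM in the anterior and 5.14 to 10.5 CPM in the posterior libraries. Their part in the Ambn result was not tested.

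The genes that set phosphate, pyrophosphate and citrate included 2 genes of 9 called toward the anterior palate (2.59% of all genes tested). Alpl, the tissue-nonspecific alkaline phosphatase that cleaves pyrophosphate, had 465, 444 and 297.9 CPM in the anterior and 153, 186 and 297.7 CPM in the posterior libraries. The groups met at replicate 3 of each region, and the fold change was -0.92 (standard error 0.27, adjusted p = 0.0902). Enpp1, on chromosome 10 at 24637914 to 24712159, encodes the enzyme that makes pyrophosphate from ATP and so opposes Alpl.

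Enpp1 had 23.9, 32.2 and 101 CPM in the anterior and 1.57, 3.03 and 2.67 CPM in the posterior libraries. The groups did not overlap, and the fold change was -4.42 (standard error 0.63, adjusted p = 0.0060), or -3.53 without anterior replicate 3. Within each library, which needs no normalization, there were 19.4, 13.8 and 2.95 Alpl counts per Enpp1 count in the anterior and 97.6, 61.3 and 111 in the posterior libraries. These ratios of the cleaving to the making enzyme did not overlap between the regions. They use the same Enpp1 counts as the fold change above and are not a separate result.

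Anterior replicate 3, the library with the most Enpp1 and Spp1, also had the most of several dental mesenchyme genes. Tfap2b had 1.97, 15.4 and 117 CPM in the anterior libraries against 2.40 to 3.61 in the posterior, and Dlx2 had 9.86, 16.3 and 52.1 CPM against 17.3 to 19.9. Over the 6 dental mesenchyme markers, 5 were highest of the anterior libraries in replicate 3, and their summed level was 284 to 671 CPM in the anterior and 431 to 637 CPM in the posterior libraries. Of the 6, Lhx6 and Lhx8 were called toward the anterior palate and Barx1 toward the posterior, and none was at 0 in any library. The part of these cells in the Enpp1 and Spp1 values was not tested.

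Phospho1, a phosphatase that frees phosphate inside matrix vesicles, was low but apart between the regions, with 27, 50 and 24 counts in the anterior and 2, 5 and 13 counts in the posterior libraries. Its fold change was -2.43 (standard error 0.54, adjusted p = 0.0389), or -3.29 without posterior replicate 3. Smpd3, a sphingomyelinase needed for mineralization, had 433, 409 and 223 CPM in the anterior and 29.3, 70.3 and 211 CPM in the posterior libraries, without overlap but also without a call (-1.77, standard error 0.64, adjusted p = 0.144). Its fold change was -2.83 without posterior replicate 3 and -1.33 without posterior replicate 1, and it was called in both fits. Sgms2, which makes sphingomyelin, had 200.1, 199 and 96.6 CPM in the anterior and 10.3, 43.3 and 146 CPM in the posterior libraries, where replicate 3 lay above the lowest anterior library (-1.31, standard error 0.78, adjusted p = 0.325). The fold change of Sgms2 was -2.62 without posterior replicate 3 and -0.80 without posterior replicate 1.

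Slc13a5, an importer of citrate, which osteoblasts incorporate into bone mineral, ranged most widely. It had 104, 106 and 60.1 CPM in the anterior and 0.225, 5.20 and 43.5 CPM in the posterior libraries, and the 3 counts of posterior replicate 1 made posterior replicate 3 194-fold higher, with a 95% interval of 66.0 to 943. All posterior libraries lay below all anterior ones, and the fold change was -2.45 (standard error 1.08, adjusted p = 0.206). It was -5.03 without posterior replicate 3 and -1.87 without posterior replicate 1, and Slc13a5 was called in both fits. Phex, a membrane endopeptidase that degrades mineral-inhibiting peptides, had 42.6, 27.9 and 22.1 CPM in the anterior and 0.973, 5.64 and 29.4 CPM in the posterior libraries. Posterior replicate 3 lay within the anterior values of Phex, and the fold change was -1.35 (standard error 0.88, adjusted p = 0.360). It was -3.21 without posterior replicate 3 and -0.81 without posterior replicate 1.

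The phosphate importers Slc20a1 and Slc20a2, which many cell types express, showed neither the anterior levels nor the posterior spread of this group. Slc20a1 had 57.6, 52.8 and 54.4 CPM in the anterior and 76.9, 68.0 and 63.0 CPM in the posterior libraries. It was higher in every posterior library, with a fold change of 0.33 (standard error 0.10, adjusted p = 0.106). Slc20a2 had 49.1, 49.4 and 55.2 CPM in the anterior and 54.4, 58.3 and 72.4 CPM in the posterior libraries, which overlapped (0.27, standard error 0.13, adjusted p = 0.239).

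Of the osteoblast membrane genes, Ifitm5, which encodes a bone-restricted protein of mineralizing osteoblasts, was called. It had 32.7, 32.1 and 15.4 CPM in the anterior and 2.25, 2.31 and 9.33 CPM in the posterior libraries, without overlap, and a fold change of -2.52 (standard error 0.57, adjusted p = 0.0403), or -3.55 without posterior replicate 3. Panx3, a channel of osteoblasts and chondrocytes, had 195, 187 and 105 CPM in the anterior and 29.2, 41.6 and 99.0 CPM in the posterior libraries (-1.52, standard error 0.45, adjusted p = 0.0925). The groups of Panx3 were apart, with replicate 3 of each region closest. Its fold change was -2.19 without posterior replicate 3 and -1.20 without posterior replicate 1, and it was called in both fits. Pth1r, the receptor of parathyroid hormone and its related protein, had 284, 311 and 201.1 CPM in the anterior and 169, 148 and 231 CPM in the posterior libraries, which overlapped (-0.54, standard error 0.21, adjusted p = 0.170).

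The pair of genes that couples osteoblasts to osteoclasts had fold changes of opposite sign, and neither was called by edgeR's quasi-likelihood test on all 6 libraries. DESeq2 called Tnfrsf11b (12.6% of all genes tested), and both were called without posterior replicate 1 (46.4%). The fold change of Tnfrsf11b was 0.73 without posterior replicate 3 and turned to -0.00078 with the term for multimapped reads. Tnfsf11, the ligand RANKL that drives osteoclast formation, had 2.66, 5.02 and 3.98 CPM in the anterior and 1.42, 2.17 and 1.99 CPM in the posterior libraries (-1.06, standard error 0.31, adjusted p = 0.0897). Tnfrsf11b, the decoy receptor osteoprotegerin that blocks it, had 8.12, 6.83 and 7.53 CPM in the anterior and 7.49, 17.2 and 24.3 CPM in the posterior libraries (1.13, standard error 0.38, adjusted p = 0.128). Tnfsf11 did not overlap between the regions, whereas posterior replicate 1 of Tnfrsf11b lay within the anterior values.

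Counts of the decoy per count of the ligand were 3.06, 1.36 and 1.89 in the anterior and 5.26, 7.93 and 12.2 in the posterior libraries, so that every posterior library had the higher ratio. Of 6 osteoclast markers examined beside them, Acp5, Mmp9, Ocstamp and Dcstamp were called toward the anterior palate and Ctsk toward the posterior, while Calcr was below the filter. Acp5, the phosphatase used to stain osteoclasts, had 19.0, 19.7 and 21.02 CPM in the anterior and 3.59, 2.89 and 2.81 CPM in the posterior libraries. Dcstamp, needed for osteoclast fusion, had 0 counts in every posterior library. The summed level of the 6 markers was 148 to 193 CPM in the anterior and 109 to 144 CPM in the posterior libraries.

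The spread among the posterior libraries recurred over the list. The highest posterior library exceeded the lowest more than 4-fold, with libraries under 3 counts set to 3, for 9 of the 28 genes, against 3.3% of all genes tested. They were Ibsp, Slc13a5, Phex, Sgms2, Smpd3, Mepe, Dmp1, Kazald1 and Ifitm5. Mepe, with 0 counts in posterior replicate 1, was at least 11.6-fold higher in posterior replicate 3 with that 0 taken as 3 counts, and the exact 95% lower limit of the ratio was 8.99. Among the anterior libraries a spread of that size occurred for 2 of the 28 genes, Spp1 and Enpp1, against 0.695% of all genes tested.

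Posterior replicate 3 was the highest posterior library for 24 of the 28 genes, against 34.5% of all genes tested, and posterior replicate 1 was the lowest for 21, against 43.5%. The median log2 ratio of posterior replicate 3 to replicate 1 was 1.30 over the 28 genes and 0.02 over all genes tested. Between posterior replicates 3 and 2, which both had the low share of multimapped reads, it was 0.66 over the 28 genes and 0.01 over all genes tested. In the anterior palate replicate 3 was the lowest library for 20 of the 28 genes, against 36.9% of all genes tested. The order among posterior libraries was not particular to this list. Among the 37 other bone genes tested, described below, posterior replicate 3 was the highest posterior library for 26 and posterior replicate 1 the lowest for 28. Their median log2 ratio of posterior replicate 3 to replicate 1 was 0.66. The genes of a list measured in 1 library are not independent of each other, and these counts describe the 6 libraries.

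**Figure D3:**
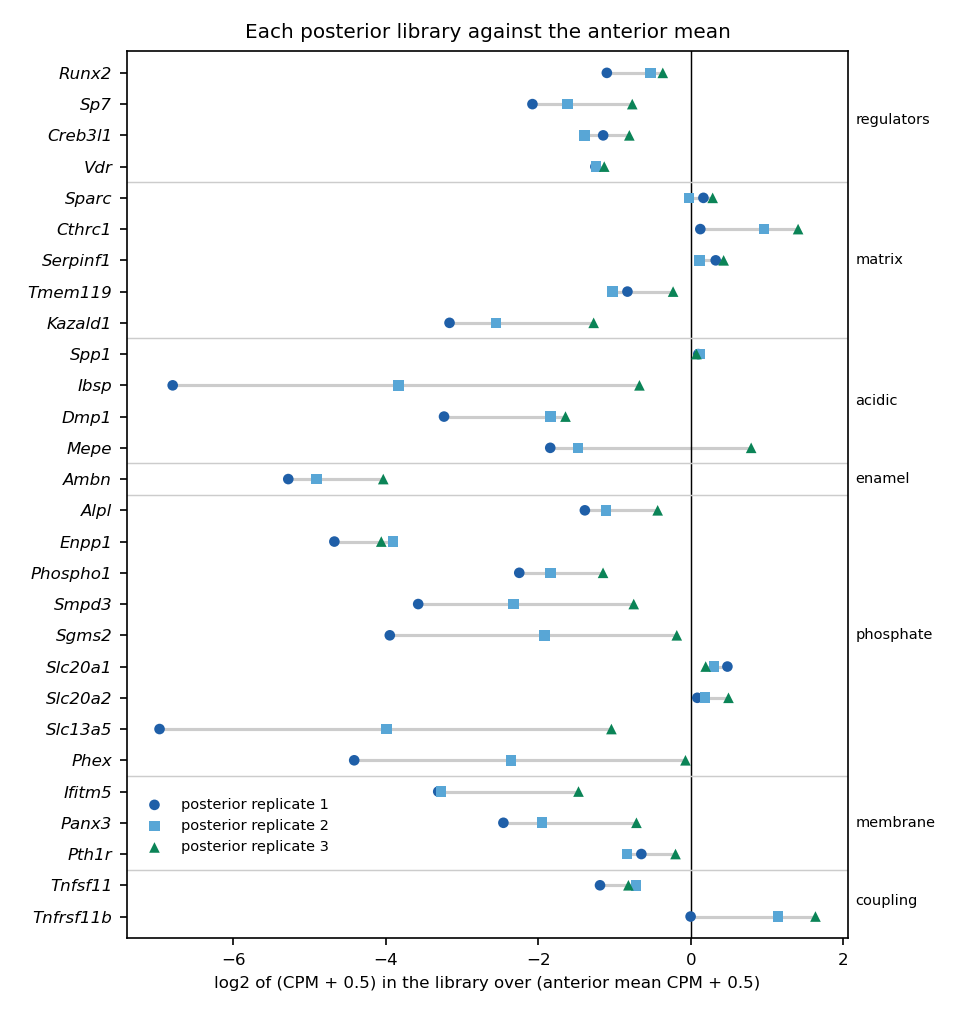
Each row is 1 of the 28 genes tested, and the points give the log2 ratio of CPM plus 0.5 in each posterior library to the anterior mean plus 0.5. Posterior replicate 1 (dark circles) lies farthest below the anterior mean for Slc13a5 and Ibsp, at -6.97 and -6.79, where posterior replicate 3 (triangles) lies at -1.04 and -0.67.

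Markers of other tissues were summed in the same libraries. The summed level of the 6 skeletal muscle markers was 538, 474 and 842 CPM in posterior replicates 1, 2 and 3, all 6 being called higher in the posterior palate, against 4.02 to 6.92 CPM in the anterior libraries. That of the 6 chondrocyte markers was 517, 659 and 641 CPM against 128 to 171 CPM, with Col2a1 and Col9a1 called higher in the posterior palate and Col10a1, a marker of hypertrophic cartilage, at 0 in every anterior library. Of the markers of epithelium, endothelium, myeloid cells and palatal mesenchyme, 19 in all, Trp63 and Prrx1 were called by edgeR's quasi-likelihood test, both toward the anterior palate. DESeq2 called 5, Krt5, Trp63 and Prrx1 toward the anterior and Kdr and Twist2 toward the posterior palate. Summed epithelium markers had 1005 to 1138 CPM in the anterior libraries and 1224, 779 and 701 CPM in posterior replicates 1, 2 and 3. Palatal mesenchyme markers had 1283 to 1418 CPM against 828, 659 and 770 CPM. Endothelium markers had 369 to 400 CPM against 332, 506 and 548 CPM, and myeloid markers 82.9 to 92.6 CPM against 87.7, 95.4 and 95.2 CPM. The part of the other tissues in the region differences was not tested.

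Genes of later differentiation were set against Sp7 within each library. Ibsp counts per Sp7 count were 11.6, 7.64 and 11.4 in the anterior and 0.368, 2.12 and 10.5 in the posterior libraries, so that posterior replicate 3 lay within the anterior values and posterior replicates 1 and 2 below them. Slc13a5 gave 0.449, 0.400 and 0.488 per Sp7 count in the anterior and 0.0046, 0.0774 and 0.359 in the posterior libraries. Phex gave 0.183, 0.106 and 0.180 in the anterior and 0.0200, 0.0839 and 0.243 in the posterior libraries. For each of the 3 genes posterior replicate 3 had the highest and posterior replicate 1 the lowest posterior ratio.

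Panx3 per Sp7 count differed less, at 0.842, 0.707 and 0.852 in the anterior and 0.600, 0.619 and 0.816 in the posterior libraries. Smpd3 gave 1.87, 1.54 and 1.81 in the anterior and 0.603, 1.05 and 1.74 in the posterior libraries. Against collagen, the main product of osteoblasts and also of other mesenchyme, Ibsp counts per Col1a1 count were 0.529, 0.480 and 0.360 in the anterior and 0.0028, 0.0193 and 0.129 in the posterior libraries, without overlap.

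**Figure D4:**
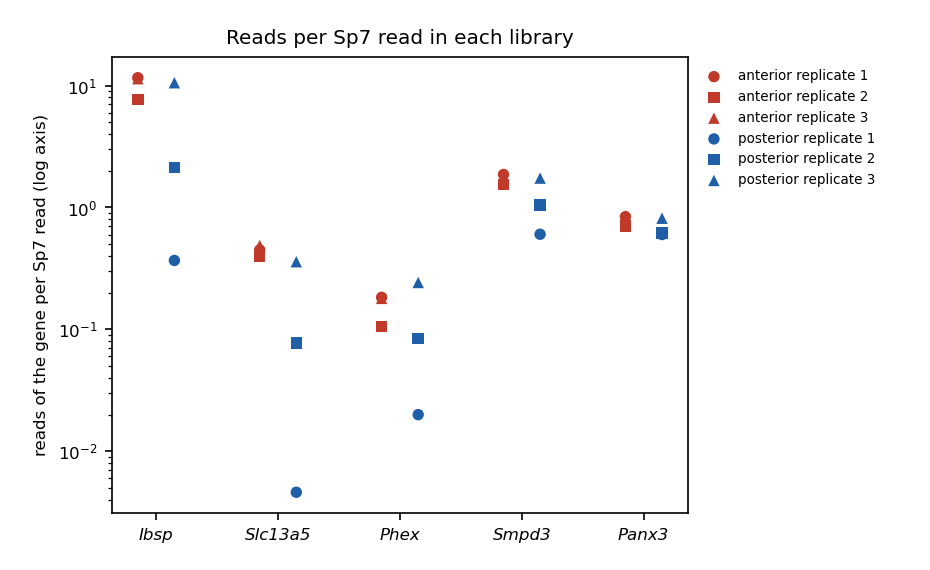
Counts of 5 genes per Sp7 count are plotted for each library on a log axis, anterior libraries in red and posterior libraries in blue. For Ibsp, posterior replicate 1 lies at 0.368 and posterior replicate 3 at 10.5, beside the anterior values of 7.64 to 11.6, whereas Panx3 stays between 0.600 and 0.852 in all 6 libraries.

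A fit with a term for the share of multimapped reads, low in posterior replicates 2 and 3 and high in the others, drew the region difference from posterior replicate 1 alone against the anterior libraries. The spread came from the other libraries, and posterior replicate 1, the lowest posterior library for most of the 28 genes, was assumed to vary like them. With this term 17 of the 28 genes were called (7.61% of all genes tested), 16 toward the anterior palate (3.21%) and 1 toward the posterior (4.4%). Those gained were Alpl, Ibsp, Panx3, Phex, Runx2, Sgms2, Slc13a5, Slc20a1, Smpd3 and Sp7, Slc20a1 toward the posterior palate, and Creb3l1 was lost. The median fold change over the 28 genes was -1.78 with the term, and these values describe that 1 posterior library. As both libraries with the low share were posterior, the regions could not be compared within that group.

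The wider bone pathway was represented by 40 other genes, of which 37 were tested and 8 called (7.46% of all genes tested), 2 toward the anterior palate (2.59%) and 6 toward the posterior (4.87%). With the term for multimapped reads 14 were called (7.61%), of which 8 were toward the anterior palate (3.21%), and the median fold change was 0.01. Among the regulators, Dlx5 (-1.68, adjusted p = 0.0160) and Sost (-3.03, adjusted p = 0.0168) were called toward the anterior palate. Sost, the osteocyte inhibitor of Wnt signalling, had at most 2.98 CPM. Msx2 (2.05), Twist1 (0.74), Zfp521 (1.30), Ostn (3.33), Postn (1.65) and Bmp3 (1.88) were called toward the posterior palate, and Twist1 and Zfp521 are known to restrain Runx2 activity. The part of these genes in the values of the list was not tested.

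None of the 13 genes for type I collagen and its processing was called by edgeR's quasi-likelihood test on all 6 libraries with the low-count filter, and 5 had an unadjusted p below 0.05, all toward the posterior palate. DESeq2 called 4 toward the posterior palate (8.56% of all genes tested), Col1a1, Col1a2, Plod2 and Lox, and limma-voom called Col1a1 alone. With edgeR, 4 were called with no limit on low counts (7.14%), Col1a1 with unstranded counts (7.16%), Plod2 with the replicate number as a block (5.29%) and 8 without posterior replicate 1 (46.4%). Col1a1 had 5092, 4212 and 3901 CPM in the anterior and 6387, 7386 and 9906 CPM in the posterior libraries (0.84, standard error 0.20, adjusted p = 0.0503), so that every posterior library lay above every anterior one without a call. The median fold change of the 37 other bone genes was 0.27. The count of 8 was 27 without posterior replicate 1 (46.4% of all genes tested) and 5 without either anterior replicate 1 (3.38%) or anterior replicate 2 (3.23%).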

How the data were processed

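RNA of 3 anterior and 3 posterior palate samples was sequenced in bulk, and libraries were grouped by their labelled region. For each library the authors deposited unnormalized counts per gene, unstranded and for each strand. The submitters' notes name HISAT2, StringTie and mm10, and the deposited counts have the layout that STAR writes. The reverse-stranded counts, 18.95 to 23.1 times those of the other strand, were used, and multimapped, unmapped and ambiguous reads and those on no gene stayed out. Symbols and positions came from GENCODE M21 (GRCm38) for 52073 of 56691 identifiers. The annotation version behind the counts is not given in the sources used here.

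Genes reaching 10 counts in 3 or more libraries were tested by edgeR 4.0.16 in R 4.3.3 (TMM, quasi-likelihood test, Benjamini-Hochberg adjustment over all genes tested, threshold 0.05), with region as the only term. The fits were run on simulated counts with 200 changed genes. The simulated spread between replicates was capped and no library group differed. The simulation therefore does not show how the fits behave with the posterior spread described here. Some genes of the other lists are not reported here and were left out of those lists. All 33 genes were named by role, whatever their values, and the members, lists and tests were chosen with earlier results of these data known. Ratios of libraries carry exact 95% intervals for counting error only. Replicates differed by more than sampling noise. The labels do not say whether replicate numbers pair the samples. Deviations of same-numbered libraries from their region means correlated at -0.0635, 0.0064 and 0.0333. With posterior replicates 2 and 3 standing apart, these values cannot decide whether libraries share embryos.

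Alternatives were DESeq2 1.42.0, limma-voom (limma 3.58.1), RLE normalization, library size only, dropping the low-count filter or requiring 10 counts in all libraries, unstranded counts, a minimum absolute log2 fold change of 1, a replicate block, a library-group term (high or low share of multimapped reads), and leaving out each replicate.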

Additional observations from a re-analysis of the deposited data

How the results depend on the processing

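Of the osteoblast and mineralization genes, 8 were called with RLE normalization, library size only, limma-voom, unstranded counts and a minimum absolute log2 fold change of 1, as in the results above. DESeq2 called 13 (2 toward the posterior palate). Without the low-count filter 17 were called (15 anterior, 2 posterior), and with at least 10 counts in every library 5 were, all anterior, because Ambn, Dmp1 and Phospho1 were then not tested. The library-group term gave 17 (16 anterior, 1 posterior). Leaving out 1 replicate at a time gave between 2 and 20 called genes, 2 to 15 of them anterior and 0 to 5 posterior. The 20, with 5 posterior, came without posterior replicate 1, where 46.4% of all genes tested were called. The other fits of this kind called 3.23% to 4.15% of all genes tested. The replicate block gave 3, all anterior, and lost Creb3l1, Dmp1, Ifitm5, Kazald1 and Phospho1. Whether the replicate numbers pair the samples is not known. The median fold change remained negative under all these settings, from -1.78 with the library-group term to -0.85 without posterior replicate 1. The other bone genes called numbered 18 with DESeq2 (12.6% of all genes tested), 18 without the low-count filter (7.14%) and 14, 8 of them anterior, with the library-group term (7.61%), against 8 in the results above, and between 5 and 27 when 1 replicate was left out. With 1 replicate left out, the sign turned for Spp1 (-0.33 without anterior replicate 1 and -0.29 without anterior replicate 2, within a range of -0.33 to 1.85) and for Mepe (0.09 without posterior replicate 1 and 0.03 without posterior replicate 2, within a range of -0.80 to 0.090), and it turned for Tnfrsf11b (-0.00078) with the library-group term. The cause of these changes was not tested. The depth limits Dspp, Bglap, Bglap2, Enam and Amelx, which had at most 7 counts in any library, and the posterior levels of Ambn, Mepe, Dmp1 and Phospho1.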
